A study of Mus musculus with 12 samples.

Results

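The data described here are the transcriptomes of 6 libraries of wild-type mouse hematopoietic stem cells, one library from each of 6 mice. The libraries were taken by their label, wild type, and they make up 6 of the 11 libraries with a column in the deposited expression table and 6 of the 12 samples in the labels. The study set these cells beside cells of mice without Osmr, the receptor chain for the cytokine oncostatin M. Only the wild-type libraries were used here, so no genotype was compared. The mice were adult, naive C57BL/6 animals, given as wild type with no transgene, Cre or treatment in the labels. From each mouse, 1000 bone marrow cells of femur, tibia and ilium were sorted as lineage-negative, KIT-positive, SCA-1-positive, FLT3-negative and CD48-negative. CD150 was also stained, but it is not part of the stated gate, and no use of it in the sort is stated. RNA was copied to cDNA with the SMART-Seq v4 kit, which primes on the poly(A) tail, amplified over 13 to 18 cycles and turned into Nextera XT libraries from 0.15 ng of cDNA over 12 further cycles.

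Hematopoietic stem cells sit at the top of the blood hierarchy and renew themselves while giving rise to erythroid, megakaryocytic, myeloid and lymphoid cells. In adult marrow most of them rest outside the cell cycle. They are maintained by signals such as stem cell factor acting on KIT, and they rely on a small group of transcription factors that includes HLF, MECOM, GATA2, RUNX1 and MEIS1. They also carry low levels of transcripts of the lineages they can enter, a state known as lineage priming.

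The unit is the normalised count, a library's read count divided by its DESeq2 size factor, and a gene was called detected where all 6 libraries held a normalised count of at least 10. Levels of different genes were compared only per length, as the normalised count per kilobase of exon scaled to the library total in the way of RPKM (written as per kb), and a percentile places a gene among the 10188 detected genes with a known length. Of 43279 genes in the table, 10668 were detected (24.6%), 12836 had a read in every library and 19165 had none in any. Counts of detected list members given below are to be read beside that 24.6%. The lists were chosen with earlier results of these data known. Depth was 22144976 reads in wild type 1 and 9886151 to 13554806 in the others, so that 3 reads, the limit that a count of 0 allows, equal 1.56 to 3.10 normalised counts. Each library is a different mouse, and the CV between libraries thus holds animal and technical spread together.

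Wild type 1 stood apart from the other 5 libraries on genes that overlap a gene on the other strand. In wild type 1, 116 genes held no read while all 5 other libraries held at least 50 normalised counts, against 0 to 4 such genes for any other library. Among genes with a median of at least 50, those whose exons are wholly covered by exons of the other strand were at 0 in wild type 1 in 38 of 39 cases (97.4%), and in 0 of 39 in each of the other libraries. The 149 genes covered by more than 50% but not wholly lay at a median log2 ratio of -3.16 against the other libraries. The 3213 genes covered by up to 50% lay at -0.13, and genes with no overlap at 0.17. Of those 3213 genes, 65 (2.02%) were at 0 in wild type 1, against 0 to 5 in any other library. The kit does not mark the strand, and no source used here states the strand setting of the counting. Its part in this pattern was not tested. Reads of a gene and its antisense partner cannot be told apart in these libraries. Gnas, the gene of the stimulatory G protein subunit, held 12.5, 6103, 4747, 4165, 4245 and 4671 normalised counts in wild type 1 to 6, in that order as in every list of 6 values here. Only 22.0% of its exon length is covered, so Gnas is far below the median of its class in wild type 1. Others that were far lower in wild type 1 than in the other libraries were Icam4 at 0, 392, 422, 309, 224 and 291, Csf1r at 1.04, 149, 69.5, 93.1, 124 and 149 and Rb1 at 199, 1694, 1549, 792, 807 and 1025. Leaving out wild type 1 raised the number of detected genes from 10668 to 11157.

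**Figure D1:**
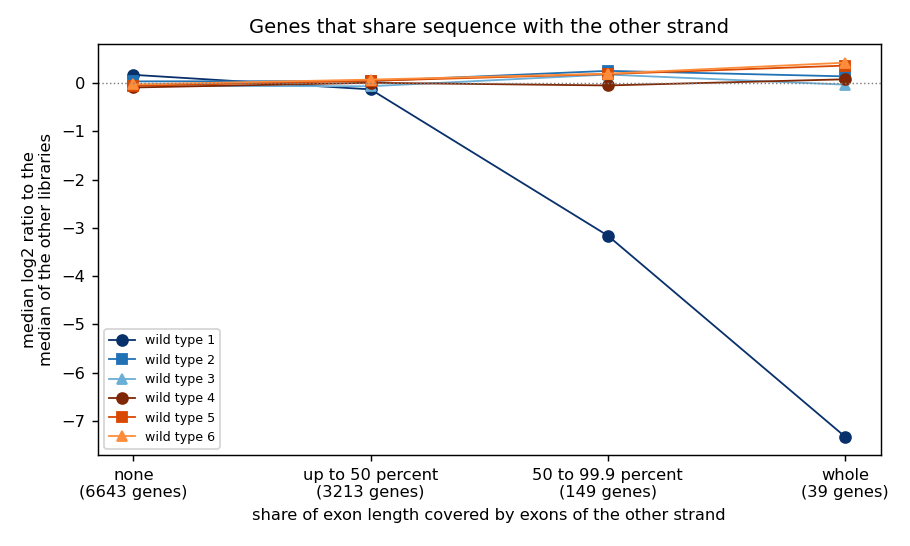
Each point is the median log2 ratio of 1 library to the median of the other 5 (vertical axis) over genes grouped by the share of their exon length covered by exons of the other strand (horizontal axis), for genes with a median normalised count of at least 50. Wild type 1 falls to -3.16 for the 149 genes covered by more than 50% but not wholly and to -7.33 for the 39 genes wholly covered, while the other libraries stay between -0.05 and 0.42 in those classes.

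The libraries numbered 1 to 3 also differed from those numbered 4 to 6, a grouping seen in the values and for which the labels give no batch. Of the detected genes, 1951 lay higher in all of libraries 1 to 3 than in any of 4 to 6 (18.3%) and 1767 lay lower (16.6%), together 34.9%. With libraries scaled to their total count instead, the split was 1216 higher and 2550 lower, since that scaling moves the median gene by up to -0.22 in wild type 3 and 0.20 in wild type 4 on the log2 scale. Pairs of libraries within a number set correlated over detected genes at 0.896 to 0.934 (6 pairs, Pearson r of log2 normalised count + 1), and pairs across the sets at 0.836 to 0.885 (9 pairs). On the leading principal component, with 40.9% of the variance, libraries 1 to 3 lay at 32.1 to 53.5 and libraries 4 to 6 at -43.0 to -40.1.

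The genes that separated the 2 sets differed in transcript length. The longest annotated transcript had a median of 2.02 kb among genes higher in libraries 1 to 3, 4.65 kb among genes lower there and 3.27 kb among the genes whose values overlapped. Of detected genes with a transcript of 1 to 2 kb, 38.2% were higher in libraries 1 to 3 and 2.68% lower. Over 8 kb the order turned, with 2.73% higher and 40.8% lower. Of 7 detected genes of the nuclear noncoding RNA list, 3 were lower in libraries 1 to 3, 4 overlapped and none was higher, beside the 16.6% of all detected genes that were lower. After the length correction described next, 1 of the 7 stayed lower. Malat1, a nuclear-retained long noncoding RNA, held 9975, 34784, 51523, 224267, 230983 and 175463 normalised counts, so that the lowest of libraries 4 to 6 was above the highest of 1 to 3. Kcnq1ot1 ran 1598, 1599.7, 3681, 4826, 4441 and 8239 and Neat1 424, 549, 712, 965, 1050.3 and 1016, also without overlap of the sets. When the median of each library was removed within 20 bands of transcript length, 2872 of 10188 genes still separated the sets, Malat1 among them but not Kcnq1ot1 or Neat1. The parts that length, library preparation and the animals have in these differences cannot be told apart here. Counts of separating members, and median transcript lengths in kb, are given below for many of the gene groups and are to be read beside these shares. For total-count scaling the shares of all detected genes were 11.4% higher and 24.0% lower, and of the 10188 genes with a length, after the length correction, 14.7% and 13.5%.

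**Figure D2:**
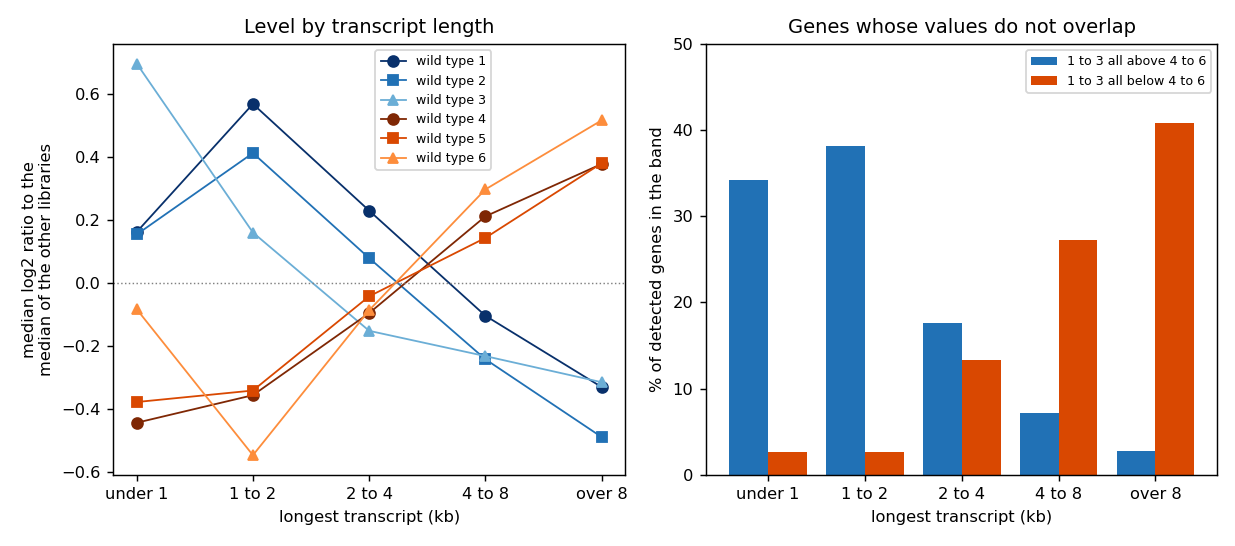
Left, the median log2 ratio of each library to the median of the other 5, for detected genes without overlap on the other strand, by length of the longest transcript. Right, the percent of detected genes in each length band whose values in libraries 1 to 3 all lie above (blue) or below (orange) those in 4 to 6, from 34.2% and 2.61% under 1 kb to 2.73% and 40.8% over 8 kb.

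The markers of the sort and of stem cells were present in every library. Kit, the stem cell factor receptor, held 4077, 3460.0, 3472, 3312, 3609 and 4512 normalised counts, 3740.3 ± 460.5 (SD, n = 6), and lay at percentile 84.2 per length with a CV of 12.3%. Ly6a, which encodes SCA-1, held 6191, 7077, 6426, 3297, 4037 and 5228, at percentile 98.4, and libraries 1 to 3 were above 4 to 6. The endothelial protein C receptor gene Procr ran 713, 643, 416, 532, 576 and 374, with the sets overlapping. Slamf1, the gene of CD150, was the least even of the 6 markers at 492, 221, 528, 236, 72.6 and 231, lowest in wild type 5 and highest in wild type 3. The stem cell transcription factors Hlf, at 3398, 3269, 4007, 6021, 6533 and 7481, and Mecom, at 715, 870.0, 1169.6, 1389, 1808 and 1730.3, were lower in each of libraries 1 to 3 than in any of 4 to 6. The division held for Hlf after the correction for transcript length and not for Mecom or Ly6a, while Kit and Slamf1, whose sets overlapped, were higher in libraries 1 to 3 after it.

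Of the 9 genes of the negative gate and the lineage cocktail, 4 were detected, among them Flt3, Cd48 and Ly6c1. Cd3e, Cd5, Ly6g and Ly6c2 stayed under 10 in all 6 libraries, with 4, 14, 1 and 6 reads over the 6 libraries. Itgam, the gene of CD11b, ran 4.16, 4.2, 12.1, 59.0, 37.3 and 16.5 and reached 10 in 4 libraries. Flt3, the receptor that marks multipotent progenitors, held 419, 389, 323, 487, 735 and 672 normalised counts, and Cd48, a marker of cells leaving the stem cell state, held 619.6, 715, 1446, 275, 347 and 422. Both proteins were gated out, so these transcripts were measured in a population sorted as negative for them. In bulk RNA of 1000 cells, a few cells with much of a transcript and many cells with little cannot be told apart.

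**Figure D3:**
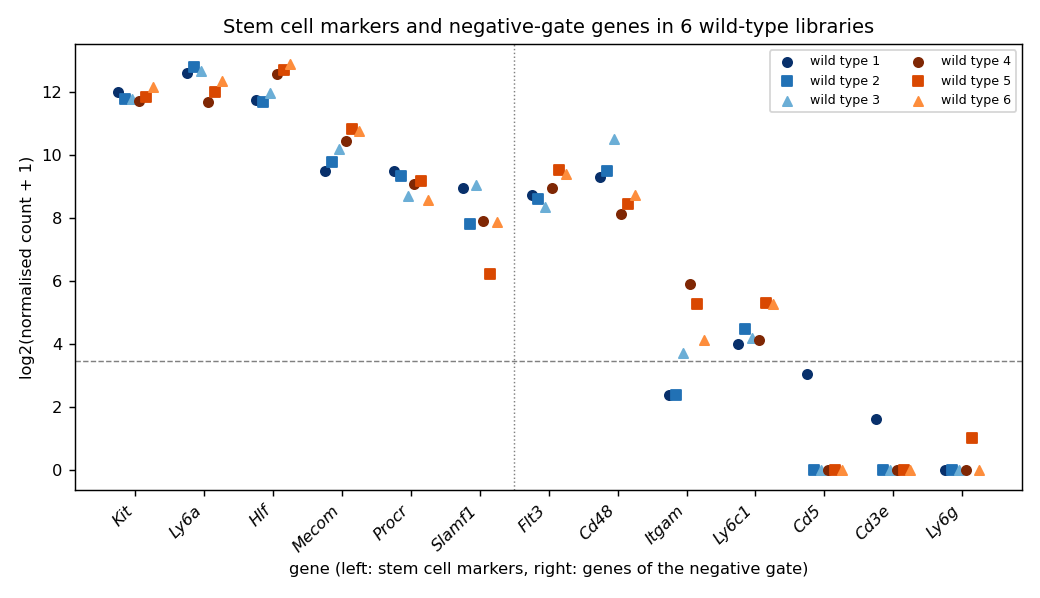
Each point is 1 library, as log2(normalised count + 1), for the 6 stem cell markers (left of the dotted line) and 7 genes of the negative gate (right), with the detection limit of 10 as a dashed line. Kit stays within 3312 to 4512, Flt3 and Cd48 lie above the limit in all 6 libraries, and Cd5, Cd3e and Ly6g lie below it.

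Nearly all genes of the stem cell lists were detected, against 24.6% of all genes in the table. Of 22 surface genes 21 were detected, with Ackr1 the exception at 0 to 53.4, and their median percentile was 64.9. In libraries 1 to 3, 2 of them were higher and 5 lower (3.24 kb), and after the length correction 4 and 4. Among the surface genes with the highest levels per length were Ly6a and the tetraspanins Cd63, at 243 per kb, and Cd9, at 183. Cd9 ran 6545, 6374, 5514, 2459, 2009 and 1822 normalised counts and separated the sets. Itga6 was even, at 1130.3 to 1427 and a CV of 9.81%, as were Cd27 at 13.9% and Kit. Fgd5, used as a reporter locus for stem cells, held 137 to 262, and Vwf, which marks platelet-biased stem cells, 85.8 to 203. Of 34 transcription factor genes 33 were detected. Lmo2, the bridge of the GATA and TAL1 complex, was the highest per length at 374 and held 9042, 9201, 8265, 8491, 7858 and 10594 normalised counts, with a CV of 10.8%. It was followed by Myb, a driver of progenitor proliferation, at 81.9 per kb, Hlf at 69.6 and Myc at 55.5. Myb was raised in 1 library, with 5740.4, 5620.4, 7689, 6146, 8075 and 15045 normalised counts. Gata2 ran 468 to 1330.0, Meis1 2778 to 4200.0, Runx1 1062 to 1989.9, Tal1 632 to 1325 and Spi1, the myeloid factor PU.1, 328 to 1341. Cebpa, the factor that commits cells to the granulocyte and monocyte line, was the one factor not detected, at 0 to 6.21. Of the Hox genes, Hoxa9 held 833 to 1443 and Hoxb4 only 16.1 to 70.3, and Prdm16 lay at percentile 8.2. Among the 33 factors, 10 were lower and 4 higher in libraries 1 to 3 (median transcript 3.25 kb). With total-count scaling 16 were lower and 1 higher, and after the length correction 7 were lower and 2 higher.

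The most abundant RNAs were mitochondrial, nuclear and small housekeeping transcripts. By mean normalised count over the 6 libraries the 15 highest were mt-Rnr2, mt-Cytb, mt-Co1, Malat1, B2m, RP24-458F14.4, Gpx1, mt-Rnr1, Tmsb4x, mt-Nd1, Ppia, Eef1a1, Ftl1, Rps14 and Fth1. Per length the 15 highest were mt-Rnr2, mt-Cytb, B2m, mt-Co1, mt-Rnr1, Gpx1, mt-Nd1, Tmsb4x, Rps3a1, Ifitm3, Ifitm2, Ftl1, Ifitm1, Rpl32 and mt-Nd6. The order of the leading genes by count differed between the sets: mt-Rnr2 lay below mt-Cytb, mt-Co1 and B2m in each of libraries 1 to 3 and above them in each of 4 to 6, where Malat1 came second. The Ifitm genes encode interferon-induced membrane proteins that restrict viruses. Among nuclear protein-coding genes B2m, the light chain of MHC class I, had the most reads but ran 94058, 98043, 172832, 38164, 43267 and 75077, a CV of 56.3%. Gpx1, a glutathione peroxidase, came next and was far more even, at 69769, 56445, 75455, 59050.5, 71643 and 60859, 65537 ± 7748 (SD, n = 6), with a CV of 11.8%. Tmsb4x, the actin-binding thymosin, and Ppia, a cyclophilin, had overlapping sets. The iron storage genes Ftl1 and Fth1 were higher in libraries 1 to 3. RP24-458F14.4, a locus with no length or gene class in the annotation used here, held 0 in wild type 1 and ran at 0.540 to 0.591 of the Malat1 count in wild type 2 to 6, and its rank is uncertain for that reason. The top 100 genes took 21.3% to 26.7% of reads, the single top gene 1.30% to 4.67%, and 479 to 756 genes made up the first 50% of reads.

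The lineage gene with the highest level per length was erythroid, Car2 at 994 per kb. Of 24 erythroid genes 18 were detected, and 9 of these 18 were higher in libraries 1 to 3 while none was lower, against 18.3% and 16.6% of all detected genes. Their median transcript was 1.82 kb, and of all detected genes of 1 to 2 kb 38.2% were higher and 2.68% lower. With total-count scaling 5 of the 18 were higher and none lower, against 11.4% and 24.0% of all detected genes. After the length correction 5 were again higher and none lower, against 14.7% and 13.5%. The carbonic anhydrase genes Car2 and Car1 led the list. Car2 held 40075, 41773, 30883, 14585, 15509.7 and 16135 normalised counts and lay at percentile 99.6, and Car1 held 10319, 9019.8, 22648, 1711, 2657 and 2655, at percentile 99.1. Blvrb, biliverdin reductase, ran 2196, 1959, 4404, 1765, 1517 and 1503. The lowest of libraries 1 to 3 lay above the highest of 4 to 6 for each of these genes, and wild type 3 was highest for Car1 and Blvrb but not for Car2. Klf1, the master regulator of red cell genes, held 524, 303, 412, 264, 276 and 160.3, and Gata1, its partner factor, 378, 296, 186, 141, 137 and 177. Of the Rh blood group complex, Rhd held 543, 303, 466, 90.8, 91.8 and 142. Its partner Rhag held 303, 264, 352, 73.0, 64.6 and 147. Tspo2, a translocator protein of red cell precursors, held 177, 124, 337, 109, 71.6 and 29.0. Car1, Car2, Rhd and Rhag kept the division under both of those corrections, and Klf1, Gata1 and Blvrb under neither. Genes of later red cell steps were near 0 or low. Slc4a1, the anion exchanger band 3, ran 0 to 6.76 and Alas2, the erythroid heme enzyme, 0 to 17.9. Adult globin transcripts were present but low for these very abundant red cell RNAs, with Hbb-bt at 697, 214, 414, 149.8, 234 and 185 and Hba-a1 at 579, 40.3, 192, 48.1, 67.6 and 67.2, highest in wild type 1. Hbb-bt and Hbb-bs, and Hba-a1 and Hba-a2, are near-identical copies, so their separate counts are uncertain.

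Promoter sequences are shown for 3 of the 9 erythroid genes that were higher in libraries 1 to 3, since these 3 hold both motifs searched. RefSeq entries on build GRCm38.p6 matched 6 of the 9 genes. The entry of Gata1 lies 10161 bases from the GENCODE start of that gene, and the other 5 entries lie within 54 bases of theirs. The 250 bases before the annotated start were searched on both strands for GATAA, the core letters bound by GATA factors, and for CACCC, the core letters bound by KLF1 and related factors. Capitals mark these letters or their reverse complement, TTATC and GGGTG. Klf1 lies at chr8:84901732-84901981 on the plus strand, Rhag at chr17:40810899-40811148 on the plus strand and Rhd at chr4:134864286-134864535 on the plus strand.
Klf1: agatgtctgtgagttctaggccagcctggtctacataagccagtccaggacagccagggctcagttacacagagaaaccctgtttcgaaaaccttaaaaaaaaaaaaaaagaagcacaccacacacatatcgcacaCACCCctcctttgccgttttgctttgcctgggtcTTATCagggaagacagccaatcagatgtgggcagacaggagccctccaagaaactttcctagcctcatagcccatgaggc
Rhag: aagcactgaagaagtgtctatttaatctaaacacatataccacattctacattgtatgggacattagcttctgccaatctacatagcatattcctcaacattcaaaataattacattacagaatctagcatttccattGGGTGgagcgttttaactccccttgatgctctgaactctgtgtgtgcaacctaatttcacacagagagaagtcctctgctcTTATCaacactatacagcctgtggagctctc
Rhd: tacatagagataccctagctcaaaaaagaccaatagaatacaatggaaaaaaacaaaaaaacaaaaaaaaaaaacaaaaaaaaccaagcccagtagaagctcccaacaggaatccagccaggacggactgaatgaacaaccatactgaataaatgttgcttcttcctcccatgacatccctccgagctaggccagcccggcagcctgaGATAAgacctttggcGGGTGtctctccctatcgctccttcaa
GATAA was found in 3 of the 6 promoters, those of Klf1, Rhag and Rhd, and in 22.6% of all 32851 promoters of this length. CACCC was found in all 6, and in 52.0% of all promoters. The GATAA match began 80 bases before the start in Klf1, 31 in Rhag and 42 in Rhd. A match is a description of these letters and shows no binding.

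Of 18 megakaryocyte genes 14 were detected, 6 of them higher and 1 lower in libraries 1 to 3 (2.82 kb), 4 and 3 with total-count scaling and 4 and 1 after the length correction. Pf4, platelet factor 4, held 5158, 4191, 7945, 1952, 1918 and 3032 normalised counts and lay at percentile 98.9. Nfe2, the factor of platelet release, ran 4659, 3938, 2030.0, 3393, 3385 and 1604, and Plek, pleckstrin, 951 to 1460.3, both with overlapping sets. The platelet glycoprotein genes were lower and uneven: Gp9 ran 525, 219, 257, 82.3, 111 and 50.7, Gp1bb 435, 226, 326, 185, 208 and 128 and Gp5 108, 66.4, 94.7, 56.7, 30.3 and 26.9. Ppbp, a platelet chemokine, ran 259, 296, 898, 41.9, 165 and 16.5, a CV of 116%. The 4 genes of the list that were not detected were Tubb1, the platelet tubulin, at 0 to 1.04, Gp6, a collagen receptor, without a read, Clec1b at 1.03 to 38.3 and Treml1 at 4.04 to 167.

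**Figure D4:**
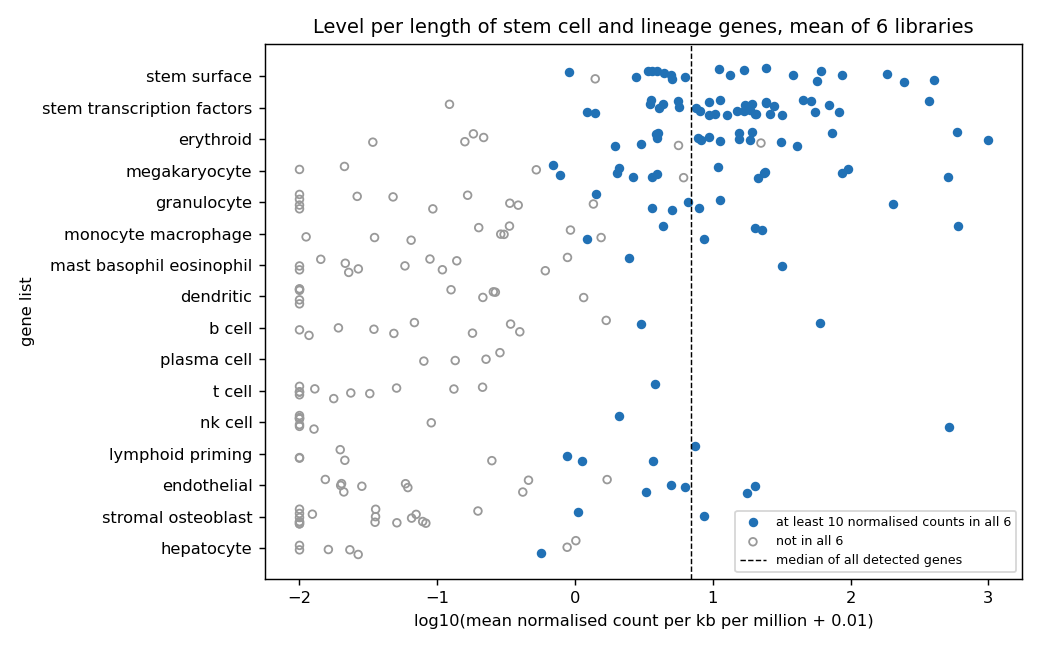
Each circle is 1 gene of a list, placed by its mean level per length over the 6 libraries on a log10 axis (0.01 added), filled where the gene was detected in all 6. Stem cell, erythroid and megakaryocyte lists lie mostly right of 0, while dendritic and plasma cell genes are open circles and T and NK cell lists hold 1 and 2 filled circles.

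In the other blood lineages some genes stood high while most members of their lists were not detected. Of 18 granulocyte genes 7 were detected. Prtn3, the neutrophil protease proteinase 3, held 3796, 3284, 5148, 3448, 3207 and 4285 normalised counts at percentile 96.4 and a CV of 19.3%. The granule proteins usually stored with it were low or at 0: Mpo, myeloperoxidase, ran 32.2, 35.3, 23.2, 36.5, 62.6 and 129, Elane, neutrophil elastase, had 21 reads in 1 library and none in the other 5, and Ctsg, cathepsin G, had none. Ltf, Lcn2 and Fcnb, genes of granules made later, also had no read, and S100a8 and S100a9 ran 19.4 to 180.3 and 20.2 to 121. Lyz2, lysozyme, a monocyte and neutrophil product, held 13274, 13608, 8755, 5978, 5389.9 and 5241, at percentile 99.1, higher in libraries 1 to 3. Of 16 monocyte and macrophage genes 6 were detected. Lyz2, C1qb, Cd68 and C1qc were the highest of this list per length. The complement genes C1qb, C1qc and C1qa, products of macrophages, were all detected, at 157 to 332, 66.5 to 249 and 10.1 to 99.3. Fcgr1 ran 0 to 15.1 and F13a1 0 to 0.52. Cpa3, a mast cell protease also known in progenitors, held 941, 437, 1085, 307, 299.7 and 103, whereas Mcpt4, Cma1 and Tpsb2, proteases of mature mast cells, stayed under 10.

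Lymphoid lists showed the same form. Of 10 NK cell genes 2 were detected, Nkg7 and Klrb1c. Nkg7, a granule gene of NK and cytotoxic T cells, held 6766, 5921, 6298, 3384, 4193 and 4870.2 normalised counts, at percentile 98.9, while Ncr1, Klrd1, Prf1, Gzma, Eomes and Tbx21 had no read in any library. Cd79b, a signalling chain of the B cell receptor, held 1691, 1325, 655, 1039, 538 and 455 at percentile 89.4. It was 1 of 2 detected among 12 B cell genes, the other being Vpreb1, a surrogate light chain, at 25.9 to 60.5. Cd79a, its partner chain, had reads in 1 library, at 37.2. Other B cell genes were low, with Pax5 at 0 to 1.01 and Igll1 at 0. Of 12 T cell genes only the kinase gene Lck was detected, at 181, 81.5, 259, 73.7, 36.3 and 108. Cd3g, Cd6, Cd8a and Cd8b1 had no read, and Cd28 and Cd4 reached 41.4 and 19.1 at most. Genes of lymphoid priming were low, with Satb1 at 129 to 463, Dntt at 0 to 17.1, and Rag1 and Il7r without a read. None of the 10 dendritic cell genes and none of the 5 plasma cell genes was detected. Itgax, Siglech, Xcr1, Cd209a and Klra17 had no read.

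Most markers of cells outside the blood were not detected. Of 15 endothelial genes 5 were detected, and these, Emcn at 499 to 1767, Egfl7 at 412 to 939, Tie1 at 247 to 428, Tek at 187 to 395 and Pecam1 at 114 to 381, are also expressed by stem cells. The genes that define vessels were low, with Cdh5, VE-cadherin, at 0 to 3.02, Kdr at 0 to 17.6 and Plvap at 0 to 5.04. Of 19 stromal and bone genes Runx2, at 586 to 1076, and Pdgfrb, at 18.5 to 95.9, were detected, and Lepr, Pdgfra, Sp7, Adipoq, Acta2, Lum and Col3a1 had no read. Of 8 hepatocyte genes Trf alone was detected, at 10.1 to 46.8, and Alb and Ahsg had no read. Among genes of fetal cells, Afp, alpha-fetoprotein, held 626, 764, 830.1, 451, 553 and 335, higher in libraries 1 to 3 but overlapping with total-count scaling, and Hmga2 held 375 to 754. The embryonic globin genes Hbb-y, Hbb-bh1 and Hba-x and the fetal stem cell factor Sox17 had no read, and Lin28b ran 0 to 6.05. Y-linked Eif2s3y, Ddx3y, Uty and Kdm5d were detected in all 6 libraries, with Ddx3y at 897 to 2570.1, and Xist ran 12.0 to 47.4.

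Cell cycle genes were detected in nearly every case. All 38 S phase genes and 44 of 46 G2/M genes were detected, against 24.6% of all genes in the table. Their median percentiles per length were 64.9 and 50.2. The highest S phase genes per length were Dut, a nucleotide-pool enzyme, at 165 per kb, the clamp loader gene Rfc4 at 152, the clamp Pcna at 119 and Gins4 at 56.8. Pcna held 4521, 4133, 3715, 1953, 2239 and 2306 normalised counts. Mcm10 and Chaf1a lay at percentiles 9.1 and 4.1. In G2/M, Pttg1, securin, was highest at 131 per kb, then Ccnb2 at 109, Birc5, survivin, at 57.2 and Ube2c at 53.4. Ccnb2, a mitotic cyclin, held 3212, 2992, 2458, 655, 781 and 943 normalised counts, higher in libraries 1 to 3, while Mki67, the proliferation antigen with a long transcript, ran the other way at 918, 1023, 1334, 2327, 1898 and 1404 and Top2a, a topoisomerase, at 824, 980.2, 1482, 1876, 2040.1 and 1923. Both of these overlapped after the length correction. Of the S phase genes 12 were higher and 8 lower in libraries 1 to 3 (median transcript 3.29 kb), and of the G2/M genes 9 higher and 6 lower (3.67 kb). With total-count scaling these became 7 and 8, and 7 and 8. After the length correction they were 11 and 6 for the S phase genes and 8 and 2 for the G2/M genes, against 14.7% and 13.5% of the genes with a length. Foxm1 and Cdc25c were not detected in all libraries, at 3.1 to 41.4 and 4.14 to 103.

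Of 12 G1 genes Cdk4 was the highest per length at 194 per kb, then Ccnd2 at 28.3, Ccne2 at 18.2 and, below it, Ccnd3 with 1054 to 1876 normalised counts. Ccnd1, the D cyclin of many other tissues, held 88.4 to 289. Cdk6, a kinase that times exit from quiescence, ran 422, 355, 421, 958, 844 and 532, lower in libraries 1 to 3, and overlapping after the length correction. Of 11 genes of the CDK inhibitor and retinoblastoma list 9 were detected. Cdkn2d, p19, was the highest inhibitor at 51.9 per kb and ran 1394, 1345, 487, 1021, 875 and 274. Cdkn1c, p57, the inhibitor tied to stem cell quiescence, held 226, 193, 205, 228, 248 and 96.2, Cdkn1b, p27, 91.7 to 269, and Cdkn1a, p21, 21.2 to 121. Cdkn2a and Cdkn2b, whose products mark senescence, held 0 to 1.01 and 0 to 1.04. The quiescence list had 11 of 16 detected, 5 of them lower and none higher in libraries 1 to 3 (3.69 kb). Of all detected genes 16.6% were lower and 18.3% higher. With total-count scaling 5 were again lower and none higher, against 24.0% and 11.4% of all detected genes. After the length correction 3 were lower and 1 higher, against 13.5% and 14.7%. Txnip, an inhibitor of thioredoxin, led the list at 3999, 3355, 3101, 4135, 4395 and 4701 normalised counts, followed per length by Cited2 and Btg1. Foxo3, a factor that maintains resting stem cells, held 557, 446, 383, 833, 801 and 790.2. Klf2 and Klf4, induced by flow and stress in other cells, ran 0 to 12.6 and 0 to 10.3.

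Nuclear genes of oxidative phosphorylation formed one of the highest lists. All 71 were detected and their median percentile was 96.8. The subunit genes Cox8a, Cox6b1, Ndufa4 and Cox4i1 led it at 1456, 1025, 916 and 897 per kb. Of the 71, 35 were higher in libraries 1 to 3 (49.3%) and none lower. Their median transcript was 1.00 kb, and of all detected genes of 1 to 2 kb 38.2% and under 1 kb 34.2% were higher. With total-count scaling 23 were higher and none lower, and after the length correction 12 were higher and 4 lower. Cox4i1 was even at 14402, 13114, 19028, 16534, 15560.2 and 13169.9, whereas Ndufa4 ran 12493, 13842, 26127, 7064, 8161 and 15771. Of 18 genes of the tricarboxylic acid cycle all were detected, 12 higher and 2 lower in libraries 1 to 3 (2.61 kb). Total-count scaling left 8 and 2, and the length correction left 9 and 1. Sdhd, Sdhb, Mdh2 and Idh3g were the highest. Idh3a, the catalytic subunit of isocitrate dehydrogenase, ran 3147, 3190.1, 2229, 626, 900.0 and 839, and Fh1, fumarase, 1249, 1255, 999, 393, 458 and 429, while Sdha ran the other way at 1492, 1419, 1189.8, 1591, 1527 and 2212 and Cs, citrate synthase, overlapped at 704 to 1130.0.

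The mitochondrial genome gave 1.65% to 6.27% of reads through its 13 protein-coding genes. Wild type 3 had the highest share and wild type 4 and 5 the lowest. Within the genome the genes were unequal per length. mt-Cytb, cytochrome b, held 149266, 153461, 332963, 38252, 44025 and 90599 normalised counts and mt-Co1 120731, 149756, 225363, 60063, 67546 and 105850.3, and mt-Nd1 and mt-Nd6 followed per length. In contrast mt-Co3 ran 65.5, 62.2, 183, 20.2, 33.3 and 43.4, mt-Co2 32.7, 39.5, 109, 27.2, 44.4 and 77.6 and mt-Atp6 29.6, 48.8, 90.7, 14.7, 13.1 and 27.9. Near-identical copies of mitochondrial sequence in the nuclear genome can take such reads, so these levels are uncertain. The mitochondrial ribosomal RNAs ran against the coding genes: mt-Rnr1 and mt-Rnr2 together took 0.592% to 1.12% of reads in libraries 1 to 3 and 3.60% to 5.93% in 4 to 6, while mt-Cytb and mt-Co1 were higher in 1 to 3.

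Glycolytic genes lay lower than respiratory ones per length, with 26 of 29 detected at a median percentile of 60.9. Of the 26, 5 were higher and 2 lower in libraries 1 to 3 (3.04 kb), with total-count scaling 1 and 5, and after the length correction 3 and 3. Ldhb and Ldha, lactate dehydrogenase subunits, Aldoa and the pyruvate carrier gene Mpc1 led at 157, 116, 75.2 and 70.1 per kb. Ldha ran 6662, 5923, 3152, 3785, 3264 and 2483. Gapdh, often used as a reference gene, held only 293, 493, 208, 209.5, 243 and 94.1 and lay at percentile 44.4. It has many processed pseudogenes, so its count is uncertain. Pkm, pyruvate kinase, was one of the most even genes of all at 725, 730.5, 751, 857, 739 and 766. Pdk2, Pdk4 and Slc16a3 were not detected. Of 22 genes of fatty acid oxidation 18 were detected, led by the electron carrier genes Etfb and Etfa, Eci1 and Acadl at 663, 131, 78.5 and 53.3 per kb. Of these 18, 7 were higher and none lower in libraries 1 to 3 (2.56 kb), against 2 and 1 with total-count scaling. After the length correction 5 were higher and none lower. Ppara, Ppard and Pparg, the receptors that induce this pathway, stayed low at 0 to 1.04, 2.01 to 11.8 and 0 to 36.4, and Cpt1b, the muscle form of the entry enzyme, had no read while Cpt1a held 569 to 1088. Of 27 antioxidant genes 26 were detected, at a median percentile of 78.6, with 9 higher and 1 lower in libraries 1 to 3 (2.52 kb), and 6 and 3 after the length correction. Besides Gpx1, Txn1, Prdx1 and Gpx4 lay at 779.9, 608 and 366 per kb, and Gpx4, the lipid peroxide reductase, had a CV of 14.2%. Of 15 genes of cholesterol synthesis and uptake 13 were detected, led by Fdps, Cyp51, Fdft1 and Hmgcs1, with 2 higher and 4 lower in libraries 1 to 3 (3.93 kb), and 2 and 2 after the length correction.

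All 79 ribosomal protein genes were detected at a median percentile of 98.1, and they took 5.70% to 7.92% of reads. Among the highest were Rps3a1, Rpl32 and Rplp1. Although their median transcript was only 1.06 kb, 10 were higher and 9 lower in libraries 1 to 3, and after the length correction 3 were higher and 30 lower. With total-count scaling the counts were 4 and 21. Rpl4, with 24213, 24392, 24658, 25353, 24892 and 23474, was the most even of all genes ranked and had a CV of 2.62%. Rps3a1 ran 22081, 23215, 31705, 33542, 35635 and 35596, lower in libraries 1 to 3, and Rpl32 21628, 20461, 34343, 14439, 14325 and 22057, highest in wild type 3. Several of these genes have processed pseudogenes, and single low members such as Rpl24, at 17.1 to 74.5, are uncertain. Of 10 heat shock genes 7 were detected, 3 of them lower and none higher in libraries 1 to 3 (2.996 kb), also with total-count scaling and after the length correction. The constitutive chaperones Hspe1, Hsp90ab1, Hspa8 and Hsp90aa1 were the highest, and the genes of the stress response itself, Hspa1a, Hspa1b and Hspb1, ran 0 to 10.1, 0 to 14.1 and 0 to 5.43.

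Receptors for the cytokines that act on stem cells were expressed at moderate levels, with 17 of 20 detected, 2 of them higher and 4 lower in libraries 1 to 3 (3.71 kb), and 3 and 4 after the length correction. Il2rg, the common gamma chain, Kit and the interferon gamma receptor Ifngr1 were among the highest, at 51.5, 38.2 and 35.0 per kb. Il2rg ran 2699.7, 2357, 1164, 643, 673 and 577, higher in libraries 1 to 3, and of its partner chains Il2rb ran 0 to 0.78 and Il7r had no read. Csf3r, the G-CSF receptor, held 88.7 to 309 and Csf2rb 66.0 to 393. Of 12 genes of the family that signals through gp130, 5 were detected. The gp130 gene Il6st itself held 142, 93.3, 77.6, 195, 226 and 109.6 and lay at percentile 7.7. The receptor chains that pair with it for oncostatin M and leukemia inhibitory factor were near 0. Osmr, the gene removed in the mutant of this study, held 2.08, 6.72, 0, 0.78, 0 and 0 normalised counts in these wild-type cells, 13 reads in all, and Lifr held 0.52, 4.2, 1.01, 0, 0 and 6.21, also 13 reads. Cntfr had no read. Il11ra1 was detected at 181 to 692, Il27ra at 76.6 to 277 and Il6ra at 13.5 to 149.8. Of the ligands, Ctf1, cardiotrophin 1, ran 419, 236, 145, 90.8, 20.2 and 282, Osm, oncostatin M, 73.8, 25.2, 8.06, 23.3, 58.5 and 148, and Il6, Lif and Il11 reached 10 in no more than 1 of 6 libraries.

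Of 22 genes of the JAK, STAT and SOCS families 20 were detected, 1 higher and 8 lower in libraries 1 to 3 (4.67 kb), and the length correction left 2 and 3. Jak1 was the highest per length and very even, at 3049, 3079, 2905, 3058, 3095 and 3464, a CV of 6.01%. It was followed by the phosphatase gene Ptpn6, Stat4 and Jak2. Stat3, which carries signals of the gp130 receptors, held 966, 841, 645, 1311, 1308 and 1655, and Stat5a and Stat5b, which act below several cytokine receptors, 207 to 735 and 297 to 781. Socs3, the inhibitor induced by those signals, ran 0.78 to 8.27, whereas Socs2 held 419 to 625 and Cish 87.8 to 688. In the TGF-beta and BMP list 19 of 27 were detected, led by Smad4, Id2, Tgfbr3 and Smad5 at 14.2, 13.9, 10.5 and 8.89 per kb. In libraries 1 to 3, 1 of these 19 was higher and 4 were lower (5.09 kb), and the length correction gave 3 and 2. The Notch list was low, with 8 of 16 detected at a median percentile of 11.2. Notch1 ran 29.1, 96.7, 50.4, 73.7, 381 and 184, Notch2 119.5 to 319, and the target Hes1 58.7, 32.8, 41.3, 1.55, 121 and 9.31, which passed 10 in 4 libraries, while Hey1 reached 2.02 and Dtx1 had no read. Mfng, Rfng and Rbpj were the highest detected members. In the Wnt list Ctnnb1, beta-catenin, held 1759 to 3243 and lay at percentile 85.1, followed per length by Gsk3b, Tcf7l2 and Fzd6, but the target Axin2 had reads in 1 library, at 7.57, and Lef1 ran 0 to 4.2.

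Genes of acute activation were low. Of 20 immediate early genes 10 were detected, led by Ier3 at 214 to 605, Ier2 at 203 to 837, Klf6 at 255 to 531 and Dusp1 at 106 to 226. Fos held 0 to 6.21, Fosb 0 to 1.01, Egr2 0 to 4.66 and Jun 10.1 to 29.4, and Egr3 and Atf3 had no read. Of the innate receptor and NF-kB genes 15 of 22 were detected, with Nfkbia, Irak1, Myd88 and Rela the highest. Tlr4, the endotoxin receptor, held 95.1 to 458, Tlr8 had no read, and Tlr2 was uneven at 52.0, 13.4, 31.2, 59.8, 390.5 and 3.1, highest in wild type 5. Interferon-stimulated genes were present without treatment. Of 14, 11 were detected, led by Ifi27 at 1567 to 3570.1, Bst2 at 362 to 669, Xaf1 at 984 to 2159.5 and Oas1a at 127 to 656. Ifit3, at 17.7, 187, 0, 92.4, 0 and 36.2, and Mx1, at 31.7, 70.6, 55.4, 46.6, 1.01 and 195, were uneven and not detected in every library. Of the 11, 3 were higher in libraries 1 to 3 (2.66 kb), none with total-count scaling and 1 after the length correction. Of 15 genes of antigen presentation 14 were detected at a median percentile of 91.7, with 2 higher and 2 lower in libraries 1 to 3 (1.96 kb). The class I genes B2m, H2-K1 and H2-D1 led together with the immunoproteasome gene Psmb10. Class II genes were also expressed, with Cd74, the invariant chain, at 6397, 4559, 2034, 1895, 2122 and 1423, H2-Aa at 3125, 1758, 1225, 771, 941 and 1245 and H2-Ab1 at 2702, 1375, 789, 810.3, 1017 and 550.2, each highest in wild type 1, while Ciita, their usual activator, ran 0 to 23.2.

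Among adhesion genes Cd47, the signal that spares cells from phagocytosis, was highest and even at 6120.4, 6544, 6921, 5596, 5644 and 6546, a CV of 8.6%, followed per length by Itgb1 at 1535 to 2098, Cd44 at 1458 to 3061 and Esam at 279 to 699. Itga4, the VLA-4 chain, ran 827, 1239, 1671, 2095, 2528 and 3282, lower in libraries 1 to 3 and overlapping after the length correction. Of 16 detected adhesion genes 2 were higher and 4 lower in libraries 1 to 3 (4.36 kb), with total-count scaling 1 and 6, and after the length correction 5 and 1. Cxcr4, the receptor for the marrow chemokine CXCL12, held 75.7 to 182, and Cdh2 had no read. Of 14 imprinted genes 6 were detected, among them Gnas and Cdkn1c as above. Grb10 held 495 to 1212 and Ndn 142 to 389, and Meg3, a noncoding RNA of the Dlk1 locus known in long-term stem cells, 16.1 to 98.3. H19 had reads in 2 libraries, at 0, 0, 0, 25.6, 30.3 and 0, and Igf2 ran 0 to 37.2.

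The spread between the 6 mice was far above counting error. The median CV of a detected gene was 38.0% (quartiles 27.8% and 50.2%), where counting alone gives a median of 5.06%. Without wild type 1 the same genes had a median CV of 37.4%. Over bands of mean normalised count it was 48.9% at 10 to 50, 47.2% at 50 to 200, 34.9% at 200 to 1000, 30.6% at 1000 to 5000 and 31.5% above 5000. edgeR's common biological coefficient of variation was 44.1%, and 43.4% to 45.6% when 1 library was left out. A CV over 100% was seen in 47 genes and a CV under 10% in 75. Genes with over 50% of their exons covered on the other strand had a median CV of 47.8% (94 genes), and genes without overlap 37.9% (6908 genes).

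The genes whose dispersion was highest against the trend, among the 4109 detected genes whose mean reached 500, were Gm13340, Gnas, Gm26631, Agbl5, Gm17275, Cox20, Gm26819 and Snhg3. Gm13340, an unprocessed pseudogene, ran 1495, 4657, 128, 47.3, 52.5 and 85.8, so that wild type 1 and 2 were far above the rest. Its exon length, 1.545 kb, equals that of mt-Co1. Whether it takes reads of mt-Co1 was not tested, so its counts are uncertain. The other 7 were each lowest in wild type 1, with 10.4 to 35.9 normalised counts there. With wild type 1 left out the 8 highest included Gm13340, Car1, Ctse, C1galt1c1, Mt1, Tgtp2 and Cd53. Ctse, cathepsin E, ran 1383, 1018, 1540.4, 199, 125 and 229.6 and Mt1, a metallothionein, 1223, 889, 3771, 467, 419.7 and 609. Cd53, a leukocyte tetraspanin, ran 2999.6, 1936, 3595, 338, 648 and 687 and Tgtp2, an interferon-inducible GTPase, 4328, 5686, 2827, 685, 836 and 765. In all 7 of these genes each of libraries 1 to 3 lay above 4 to 6, as in 18.3% of all detected genes. The 7 were picked for their spread, which holds the difference between the sets, so this is not a separate result. The most even genes against the trend were Rpl4, Psmb4, a proteasome subunit, Tsn, Irf2, Ptpra, Pkm, Jak1 and Scd2, with CVs of 2.62% to 6.45%. Psmb4 held 2487, 2624, 2514, 2703, 2447 and 2539, and Irf2, an interferon regulatory factor needed by stem cells at rest, 969, 999, 908, 1065, 1020.1 and 1013.

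Lists differed in their spread. Among lists with at least 10 detected genes the median CV was lowest for stem cell surface genes, at 27.3%, and ribosomal proteins, at 28.8%, and highest for the mitochondrial genome, at 57.7%, and erythroid genes, at 51.3%. Stem cell transcription factors lay at 31.7%, S phase genes at 37.1% and nuclear respiratory genes at 36.8%, beside 38.0% for all detected genes. Without wild type 1 the order changed: stem cell transcription factors were lowest at 28.0%, then ribosomal proteins at 28.2% and stem cell surface genes at 29.3%, and the mitochondrial genome was highest at 62.4%, then interferon-stimulated genes at 49.1% and erythroid genes at 48.9%.

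**Figure D5:**
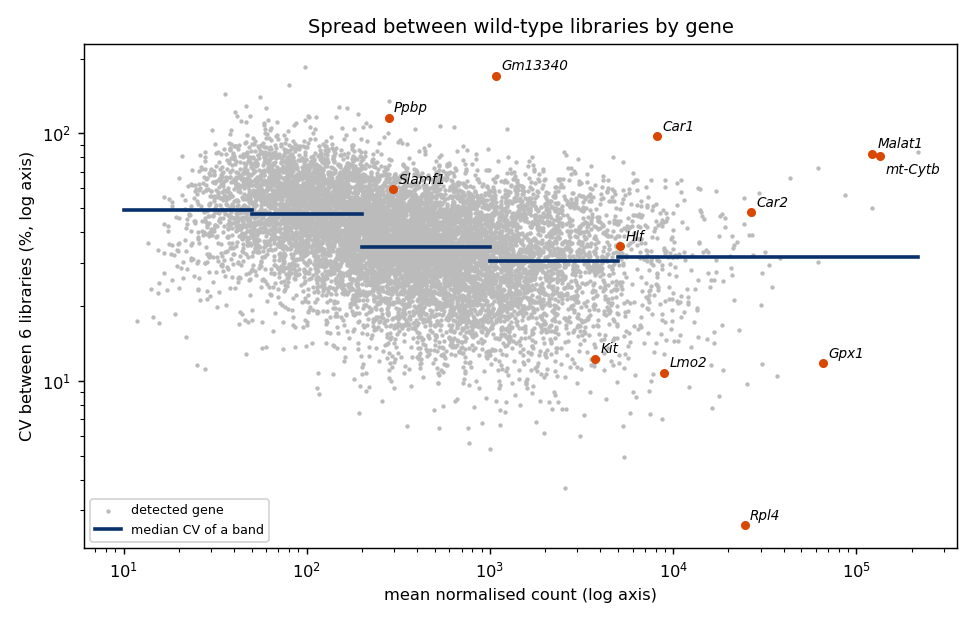
Each grey point is 1 of the 10668 detected genes, by mean normalised count and CV between the 6 libraries, both on log axes, and blue bars give the median CV of each band of level. Rpl4, Lmo2, Gpx1 and Kit lie well under the bars, at 2.62% to 12.3%, and Gm13340, Ppbp and Car1 well above them.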

How the data were processed

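The data are gene-level RNA-seq values of 6 wild-type libraries, each from a different mouse, grouped by their titles. Per the submitters' processing notes, reads were handled with Trimmomatic 0.36.6, FastQC 0.72, HISAT2 2.1.0 on mm10, HTSeq 0.9.1 and DESeq2 (wrapper version 2.11.40.6). For the counting, no source used here states which gene annotation or strand option was taken. The deposited normalised counts, a signal value, are read counts that the authors divided by a size factor per library. The deposited rlog and variance stabilised values are on a log2 scale, made by the authors, and served only in alternatives.

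Dividing each library by its smallest step gave whole reads for 100% of values within 1e-06. Library totals were 9886151 to 22144976 reads. With counting error alone the median detected gene has a CV of 5.06%, and PCR copies without molecular identifiers are not independent, so this and the limit of 3 reads cover counting error only. Exon lengths, longest transcripts, gene classes and overlap with exons of the other strand came from GENCODE M21, whose gene models may differ from those used for counting. Levels per length used union exon length. Biological coefficients of variation came from edgeR 4.0.16 on the recovered reads, with R 4.3.3, and the dispersion script was tested on simulated data. A set of libraries was called apart where all 3 of its values lay above or below the other 3, and log2 values used a pseudocount of 1. Promoters are RefSeq entries on GRCm38.p6.

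With 1 group there was no test between groups. Of 871 list symbols 869 were in the table, and Epb42 and Ahsp were not. The genes named by rule are the 6 markers and the gate genes, the 15 most abundant by count and by level per length, the 4 highest members of each list and those without reads, and the 8 most and 8 least variable genes with a mean of at least 500. A few genes that this rule names are not reported here. Other genes were named after their values were seen. The members and lists were chosen with earlier results of these data known. The Osmr-deficient libraries were not used. Alternatives covered scaling, thresholds, thinning of reads, transcript length and leaving out each library.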

Additional observations from a re-analysis of the deposited data

Results flagged for a closer look

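A library was set apart for a quantity where its gap to the nearest other library, divided by the range of the 6, passed Dixon's critical value for 6 samples. This was tested for the 279 genes named above whose highest normalised count reached 10 and for 16 measures of the libraries, and 48 of these passed, 44 of them genes. For genes picked without regard to their values chance passes about 1 in 20 groups of 6. Many genes here were named for their spread or after their values were seen, so the number that passed cannot be read against that share. No explanation of these values was tested.

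For the libraries as a whole, wild type 1 was highest in depth, at 22144976 reads against 9886151 to 13554806. It also had 116 genes at 0 with at least 50 normalised counts in the other libraries, against 0 to 4. Its share of reads on genes annotated as antisense was the lowest, at 0.253% against 0.640% to 0.737%. In wild type 3 the top 1000 genes took 64.1% of reads, against 55.1% to 58.4%.

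Of the genes, given in normalised counts, wild type 6 was highest for Myb at 15045 (others 5620.4 to 8075), Meis1 at 4200.0 (others 2778 to 3282), Jak1 at 3464 (others 2905 to 3095) and Ddx3y at 2570.1 (others 897 to 1493). Next in that library came Runx1 at 1989.9 (others 1062 to 1395), Uty at 901 (others 272 to 506), Mx1 at 195 (others 1.01 to 70.6) and Mpo at 129 (others 23.2 to 62.6). It was also highest for Rpl24 at 74.5 (others 17.1 to 38.3), Cd79a at 37.2 (others 0), Igf2 at 37.2 (others 0 to 4.04) and Slc16a3 at 20.7 (others 0 to 5.04). Lower in level but likewise highest there were Pdk4 at 19.7 (others 0 to 3.1) and Klf4 at 10.3 (others 0 to 1.55). The lowest value was in wild type 6 for Cdkn1c at 96.2 (others 193 to 248) and Clec1b at 1.03 (others 28.1 to 38.3). Wild type 3 was highest for mt-Nd1 at 99000.1 (others 20217 to 40752), mt-Nd6 at 23206 (others 6799 to 12258), Cox8a at 19005 (others 5754 to 10382) and Blvrb at 4404 (others 1503 to 2196). Next in that library came Mt1 at 3771 (others 419.7 to 1223), Snhg3 at 1638 (others 10.4 to 542), Ppbp at 898 (others 16.5 to 296) and mt-Co3 at 183 (others 20.2 to 65.5). It was also highest for S100a8 at 180.3 (others 19.4 to 57.2) and Cd4 at 19.1 (others 0 to 6.21). Highest in wild type 5 were Csf2rb at 393 (others 66.0 to 124), Tlr2 at 390.5 (others 3.1 to 59.8), Cdkn1a at 121 (others 21.2 to 55.8) and Elane at 21.2 (others 0). Next in that library came Hspa1b at 14.1 (others 0 to 3.88), Lif at 14.1 (others 0 to 2.52) and Hspa1a at 10.1 (others 0 to 1.68).

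Those highest in wild type 1 were Hba-a1 at 579 (others 40.3 to 192), Hba-a2 at 139.8 (others 6.72 to 34.1) and Trf at 46.8 (others 10.1 to 18.1). The lowest value was in wild type 1 for Kdm5d at 165 (others 364 to 439) and Gnas at 12.5 (others 4165 to 6103). Wild type 2 held the highest values of Gm13340 at 4657 (others 47.3 to 1495), Il6 at 14.3 (others 0) and Klf2 at 12.6 (others 0 to 2.33). Wild type 4 was highest for Pkm at 857 (others 725 to 766), Il6ra at 149.8 (others 13.5 to 56.5) and Alas2 at 17.9 (others 0 to 5.72).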

How the results depend on the processing

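No paired analysis was possible because 1 group was used and no comparison between groups was made. With 1 library left out, detected genes ran from 10752 to 11157, the share of reads in the top 100 genes from 24.1% to 24.6%, the mitochondrial share from 2.86% to 3.23%, the median CV from 36.5% to 38.7%, the median pair correlation from 0.877 to 0.886, genes separating the number sets from 4437 to 5258 and lists above the median gene from 28 to 31. Fewer libraries make detection in all of them, and separation, easier by construction.

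The median CV of 38.0% became 38.9% with total-count scaling, 34.2% at a minimum of 50, 77.8% without a filter, 40.8% from the SD of log2 values and 24.6% from the authors' rlog values, which shrink low genes by construction. The top-gene share of 24.3% became 34.3% per kilobase, 10.1% for 10 genes and 58.2% for 1000. The median pair correlation of 0.884 became 0.951 without a filter. Restricting to genes without overlap on the other strand, chosen after seeing the data, left 6908 detected and 2477 separating genes. The correction for transcript length, also chosen then, left 2872. Of 178 list levels under other settings 42 moved, 23 of them with the longest transcript as length. Depth limits genes under 10 normalised counts, where 3 reads are 1.56 to 3.10. The counting annotation is unknown, so genes overlapping on the other strand, pseudogene-rich genes and near-identical copies are uncertain.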
